A study of Caenorhabditis elegans with 2 samples.

Results

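HRDE-1 is a nuclear Argonaute of the germline in the nematode Caenorhabditis elegans, and the regions described here are 1 kb stretches of the genome where small RNA was recovered with HRDE-1 but no read was found in small RNA of wild-type N2 worms. They were chosen from the deposited coverage table as bins with the N2 value at the floor of 0.10 and the HRDE-1 co-immunoprecipitation (coIP) value at 1.0 or more. The rule found 2920 of 100257 bins, or 2.91%. Both libraries were used by the rule, so the coIP level, the absence of N2 reads and any ratio of the libraries in these bins describe the choice and were not tested.

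The coIP library holds small RNA that came down with FLAG-StrepII-HRDE-1 on an anti-FLAG resin, from a strain that the labels call HRDE-1-coIP without giving its other alleles or how the tagged protein was expressed. The N2 library comes from the wild-type strain, and both libraries were made from pooled young adult hermaphrodites. The cloning method used for both also captures RNAs that lack a 5′ monophosphate. The labels give the same protocol for both and do not say if N2 small RNA was taken from whole lysate or from a mock pull-down, so binding to HRDE-1, strain and preparation cannot be told apart. There was 1 library per group, so no difference below has a replicate check or a test.

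In C. elegans, secondary small interfering RNAs are made by RNA-dependent RNA polymerases on target transcripts and carry a 5′ triphosphate. HRDE-1 binds such RNAs, enters germline nuclei and directs silencing of nascent transcripts together with methylation of histone H3 at lysine 9, and this silencing can be inherited. Chromosome arms of this nematode are rich in repeats and heterochromatin, the centres of autosomes are rich in conserved genes, and the X chromosome is largely silent in much of the germline. The same small RNAs can also be part of total small RNA, so a bin filled in the coIP and empty in N2 is a statement about depth as well as about place.

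The coIP library held 4832888 read equivalents in the bins and the N2 library 2161949, with values between whole reads taken as fractions of a read. A value of 1 read above the floor was 0.169 in the coIP and 0.232 in N2. The coIP minimum of 1.0 stood for 5.33 reads, since 5 whole reads give a value of 0.945 and 6 give 1.11. A rounded N2 value of 0.10 can hide at most 0.0215 of a read, and a count of 0 allows up to 3 reads. Just inside the limit, 101 bins had coIP values of 1.00 to 1.10, and just outside it 499 bins at the N2 floor had coIP values of 0.90 to 0.99. On the N2 side, 373 bins with enough coIP signal had an N2 value of 0.11 and 1533 had 0.12 to 0.32, all of them fractions of a read, and these are not among the 2920.

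Most of the bins without an N2 read were weak in the coIP. Their coIP values had a median of 1.80 (10.1 reads), with 25% of bins at or under 1.30 (7.10 reads), 25% at or above 3.15 (18.1 reads) and a maximum of 115.14 (681 reads). Of the 2920, 1610 were under 2.0 and 141 were at or above 10. Together they held 54869 read equivalents, or 1.14% of the coIP library (95% Wilson interval 1.13 to 1.14%, counting error only). The 10 strongest held 7.34% of that signal and the 100 strongest 25.8%. For comparison, the 30608 bins with coIP values of at least 1.0 and some N2 signal had a median coIP value of 4.24, a median N2 value of 1.37 and 97.5% of the coIP library. They are called coIP bins with N2 signal below.

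How many coIP bins lacked an N2 read depended on the coIP level. Of all 33528 bins with a coIP value of at least 1.0, 8.71% had N2 at the floor. The share was 20.3% at coIP values of 1 to 1.5, 11.1% at 2 to 3, 4.08% at 5 to 10, 1.18% at 20 to 50 and 0.272% at 50 and above, where 7 of 2574 bins lacked an N2 read. With equal shares in both libraries, a bin at the coIP minimum would hold 2.38 N2 reads and the median bin without an N2 read 4.50. With N2 counted as 3 reads, the coIP share was above the N2 share in 2403 of the 2920 (82.3%). It was at or below the N2 share in 517 (17.7%), where a difference between the libraries was not detectable at this depth. The coIP minimum, 2.38 N2 reads at equal share, lies close to this limit of 3, so these counts describe the choice. The matching share over all bins is not given. Counting error of the coIP was left out, so a bin among the 2403 need not show a detectable difference. At V 5487001 to 5488000 the ratio was at least 1.06-fold, but 0.429-fold with coIP counting error. The number of bins above the N2 share depended on the scaling. It was 1416 with library sums that leave out the 10 highest bins of either library and 1301 when the median of ratios set the scale, so that under either scaling most of the 2920 showed no detectable difference. Counted the same way, 415 of the 2920 (14.2%) exceeded N2 by at least 4-fold, against a background of 6.96% of all bins. That background belongs to the contrast that chose the bins, includes bins under the coIP minimum and is given for scale. Among coIP bins with N2 signal the share was higher than 14.2%. It was 31.6% in those next to a bin without an N2 read and 20.6% in the others. With scaling by the median of ratios 201 of the 2920 were at least 4-fold higher, and 213 without those 10 highest bins. The background of 6.96% is for library sums only.

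In the authors' deposited table, the p-value was 0.05 or less for 1417 of the 2920 bins (48.5%), against a background of 12.6% of all bins with such a p-value and a higher coIP share. The rule used both libraries, so this excess describes the choice, and the background is given for scale. The highest p-value among the 2920 in the authors' deposited table was 0.33. Within the group N2 is fixed at the floor by the rule, and the p-value went with the coIP value. In the authors' deposited table every bin with a p-value at or under 0.05 had a coIP value of at least 1.93, and no bin above 0.05 exceeded 1.91.

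**Figure D1:**
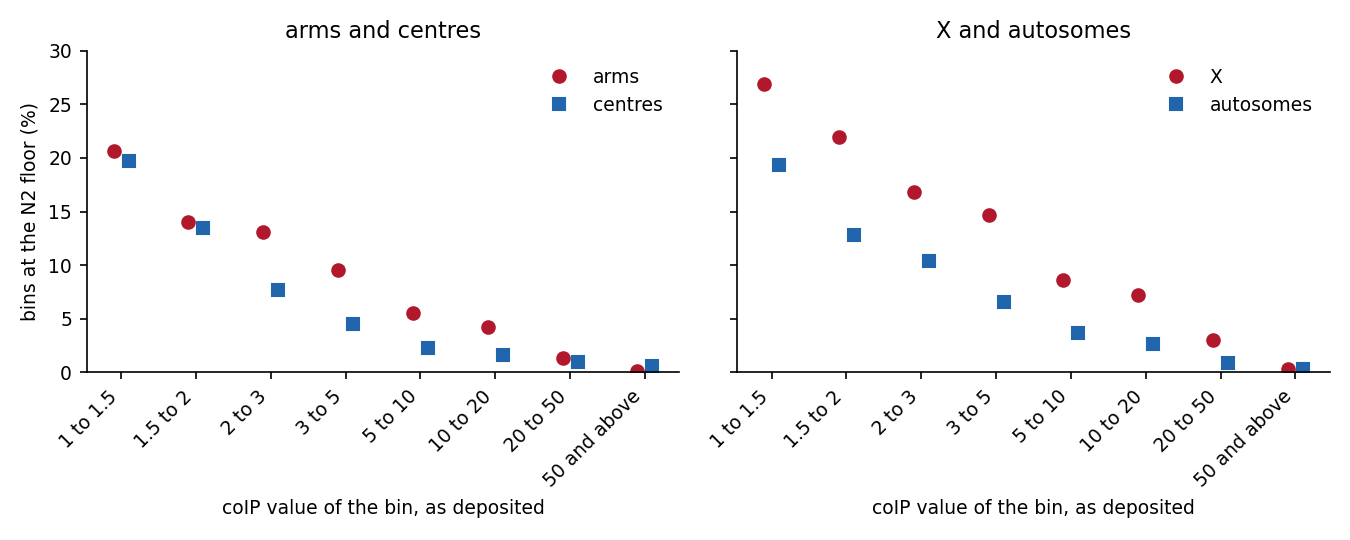
Share of coIP bins whose N2 value is at the floor (vertical axis, percent), by the coIP value of the bin as deposited (horizontal axis, 8 bands), for arms and centres (left) and for X and autosomes (right). Each point is a share of bins in the pair of libraries, with no replicate. The share falls with the coIP value, and X lies above the autosomes in every band under 50.

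The bins without an N2 read lay more often in arms than either kind of bin they were compared with. Against coIP bins with N2 signal, the excess pooled over chromosomes was in left arms and not in right arms. With the outer 30% of each chromosome end called an arm, 2110 of the 2920 (72.3%) were in arms. Of coIP bins with N2 signal 61.8% were in arms, and of the 40125 bins at the N2 floor with coIP values under 1.0 it was 55.995%. Of all bins, 60154 of 100257 are in arms by this definition. Per 1000 bins there were 35.1 bins without an N2 read in arms and 20.2 in centres. Pooled over chromosomes, 1183 (40.5%) were in left arms and 927 (31.7%) in right arms, whereas coIP bins with N2 signal had 29.9% in left and 31.8% in right arms. Chromosome II, with 277 in its left and 133 in its right arm, gave 144 of the difference of 256, and I went the other way, with 151 and 195.

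With each chromosome divided into 10 equal parts, the number was highest at the left end. The leftmost part held 500 of the 2920 (17.1%) and the next 411 (14.1%), while each of the 4 middle parts held 188 to 214 (6.44 to 7.33%). The rightmost part held 334 (11.4%), close to the 11.5% of coIP bins with N2 signal in that part. Among coIP bins with N2 signal the parts ranged from 9.07 to 11.5%, and among quiet bins, those at the N2 floor with less coIP signal, the leftmost and rightmost parts held the fewest.

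**Figure D2:**
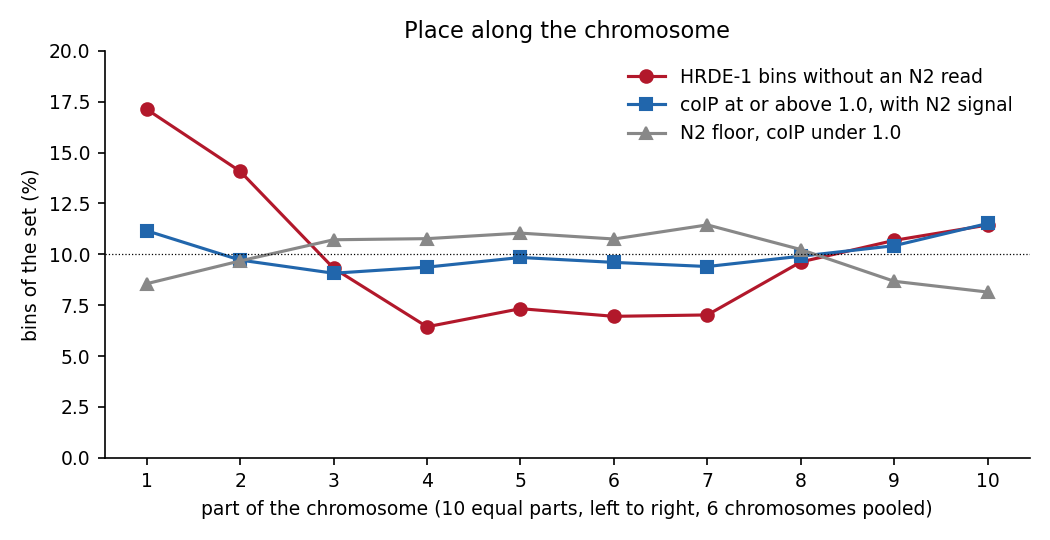
Percent of each set of bins (vertical axis) in each of 10 equal parts of the chromosome, left to right, with the 6 chromosomes pooled (horizontal axis). The dotted line marks an even spread. Bins without an N2 read reach 17.1% in the leftmost part and lie between 6.44 and 7.33% in the 4 middle parts.

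As a share of coIP bins, the gap between arms and centres lay at middle coIP levels and not in the weakest bins. By number the weakest were mostly in arms too, with 785 of the 1101 at 1 to 1.5 in arms and 316 in centres. In the band of 1 to 1.5 the share of coIP bins that lacked an N2 read was 20.6% in arms and 19.7% in centres, and at 1.5 to 2 it was 14.1% and 13.5%. At 2 to 3 it was 13.1% in arms and 7.72% in centres, at 3 to 5 it was 9.51% and 4.48%, and at 5 to 10 it was 5.57% and 2.31%. At 10 to 20 it was 4.22% in arms and 1.57% in centres. At 50 and above the order turned, on 3 of 1855 bins in arms and 4 of 719 in centres. Over all bins, fewer were at the N2 floor in arms (40.9%) than in centres (46.0%).

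The left arm of chromosome II held the most of all arms and centres. It had 277 bins without an N2 read, 60.4 per 1000 bins and 15.8% of its coIP bins, and the median coIP value of the 277 was 2.13. Its centre held 110, or 18.0 per 1000 bins and 5.45% of its coIP bins. Next in density came the right arm of I with 43.2 per 1000 bins and the left arm of III with 42.1. The left arm of V held 216, 34.4 per 1000 bins and 12.9% of its coIP bins. Among arms, the right arm of IV had the fewest, with 111, 21.2 per 1000 bins and 5.59% of its coIP bins, and it also had the smallest share of bins at the N2 floor of any arm or centre, 27.2%.

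In windows of 500 kb the bins were spread unevenly. The 197 full windows held a median of 13 bins without an N2 read, with 4 to 50 in each. The fullest was the left end of V, positions 1 to 500000 in the file, where 50 of 231 coIP bins (21.6%) lacked an N2 read. The next 4 tiled the first 2 Mb of II, with 44 at 1500001 to 2000000, 41 at 1 to 500000, 40 at 1000001 to 1500000 and 37 at 500001 to 1000000. By share of coIP bins other windows were higher. The highest were X 500001 to 1000000 with 27 of 93 (29.0%), X 2500001 to 3000000 with 29 of 111 (26.1%) and V 3000001 to 3500000 with 20 of 77 (26.0%). These windows were named after their values were seen. On IV, where most piRNA genes lie in a pair of clusters, the windows at 5 to 7 Mb and 14 to 17 Mb held 31 and 62. This was 15.5 and 20.7 per 1000 bins, against 25.4 per 1000 over the rest of that chromosome. As a share of coIP bins it was 6.34% and 5.44%, against 7.10%. At 5 to 7 Mb 489 of 2000 bins reached the coIP minimum, and over the rest of IV 4463 of 12494 did.

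The X chromosome carried its share of the bins by length but more than its share of the coIP. It held 518 of the 2920 (17.7%), and 17.7% of all bins are on X. Density was 29.2 per 1000 bins on X and 29.1 on the autosomes. Of coIP bins with N2 signal only 10.2% were on X, 176 per 1000 X bins against 333 per 1000 autosomal bins. As a result 14.2% of coIP bins on X lacked an N2 read, against 8.04% on autosomes. The gap was present at each coIP level under 50, with 26.9% on X and 19.3% on autosomes at 1 to 1.5, and 8.59% and 3.69% at 5 to 10. Over all bins, 55.2% were at the N2 floor on X and 40.3% on autosomes, and the part of this in the X result was not tested.

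On X the arms did not exceed the centre in share of coIP bins. Bins without an N2 read were 13.7% of coIP bins in the arms of X and 15.7% in its centre, whereas on autosomes they were 9.51% in arms and 5.69% in centres. In the band of 2 to 3 the shares were 15.4% and 20.9% on X, and at 3 to 5 they were 15.4% and 13.1%. Autosomes had 12.8% in arms and 6.71% in centres at 2 to 3, and 8.75% and 3.88% at 3 to 5. On chromosome number alone, V held 536, II 520, I 493, III 443 and IV 410, and the lowest density was on IV with 23.4 per 1000 bins.

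Most of the bins stood singly, although both the N2 floor and the coIP minimum limit the length of a run. The 2920 bins formed 2537 runs of adjacent bins, of which 2205 were a single bin, 288 were 2 bins, 37 were 3 bins and 7 were 4 bins. Single bins made up 75.5% of the 2920 and no run was longer than 4 kb. Most of the bins were part of a longer coIP stretch, that is, adjacent bins of coIP value at least 1.0. In all, 2007 (68.7%) lay in stretches that also held bins with N2 signal, stretches with a median length of 4 kb. The highest coIP value of the stretch had a median of 12.7 over these 2007 bins, and their own median coIP value was 1.98. The other 913 formed 781 stretches without any N2 read and had a median coIP value of 1.62.

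Within coIP stretches, bins without an N2 read were more at the rim than inside. Of the 2920, 669 (22.9%) stood alone, 1385 (47.4%) were the first or last bin of a stretch and 866 (29.7%) were inside. For coIP bins with N2 signal these shares were 11.8% alone, 35.5% at an edge and 52.7% inside. The sets differ in coIP level, with medians of 1.80 and 4.24. Shares at an edge and inside were not compared at matched coIP level. Weak bins stand alone more often in both sets. Between coIP values of 1 and 1.5, 32.5% of bins without an N2 read and 28.1% of those with N2 signal stood alone, at 3 to 5 it was 14.8% and 9.80%, and at 10 to 20 it was 4.81% and 4.20%.

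N2 reads were close by in most cases. Of the 2920, 2378 (81.4%) had N2 signal in at least 1 adjacent bin, 1064 (36.4%) on both sides and 542 (18.6%) on neither. Over all bins these shares were not far off, at 75.1%, 39.1% and 24.9%. At least 1 whole N2 read lay next to 62.0% of all bins. At least 1 whole N2 read in an adjacent bin was found for 1993 (68.3%), and within 2 kb for 2464 (84.4%). For 92 (3.15%) the nearest such bin lay more than 5 kb away, at most 18 kb. Of coIP bins with N2 signal 95.8% had N2 signal next to them, and of the quiet bins 55.6%. The difference was also found among stronger bins. Between coIP values of 5 and 10, 185 of 232 bins without an N2 read (79.7%) had N2 signal in an adjacent bin, against 97.4% of those with N2 signal, and at 10 to 20 it was 84 of 104 (80.8%) against 97.8%.

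The profile around the bins showed a different shape in each library. The median coIP value was 1.80 in the bin itself, 1.14 and 1.16 at 1 kb on the left and right, 0.61 on both sides at 5 kb and 0.51 and 0.50 at 10 kb, so the coIP signal declined over several kb. The share of bins with N2 signal was 0 in the bin itself by the rule, 58.6% and 59.2% at 1 kb, and 60.2% and 58.7% at 10 kb, so at 1 kb it was already close to its level at 10 kb. Of all 100257 bins, 43045 were at the N2 floor and the rest had N2 signal. The level around the bins was thus near the share over all bins. Around coIP bins with N2 signal that share was 83.1% on both sides at 1 kb and 65.2% at 10 kb on the right. Quiet bins had 35.6% and 35.5% at 1 kb and 50.5% at 10 kb on the right.

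**Figure D3:**
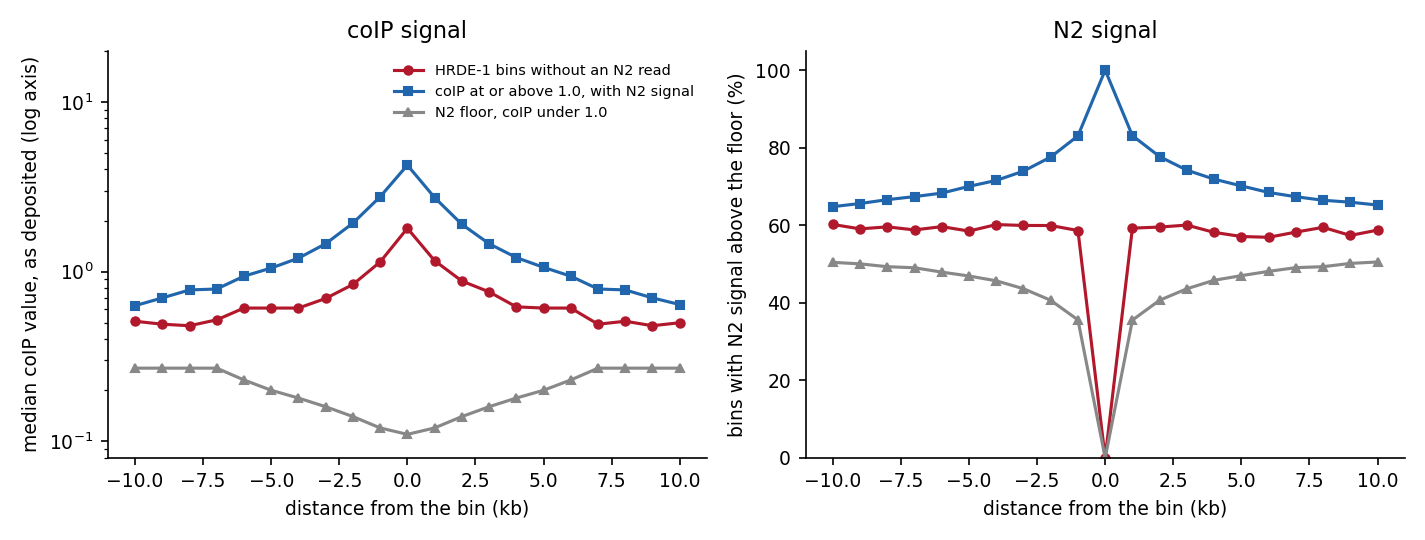
Median coIP value as deposited (left panel, log axis) and percent of bins with N2 signal above the floor (right panel) against distance in kb from bins of 3 sets. Around bins without an N2 read the coIP median is 1.80 in the bin and 0.51 and 0.50 at 10 kb, while the share with N2 signal is 58.6% and 59.2% already at 1 kb.

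Bins beside those without an N2 read were themselves low in N2 for their coIP level. The rule did not choose these adjacent bins, but each touches a bin that it required to be at the N2 floor. They are therefore not a measure independent of the rule. N2 signal was less frequent at 1 kb from quiet bins (35.6% and 35.5%) than from coIP bins with N2 signal (83.1% on both sides). How much of the low N2 follows from touching a bin at the N2 floor was not tested. Of coIP bins with N2 signal, 2251 were adjacent to a bin without an N2 read and 28357 were not. The adjacent ones had a median coIP value of 3.96 and a median N2 value of 0.61, and the others 4.29 and 1.49. The median log2 ratio of coIP over N2, each as a share of its library, was 2.16 in adjacent bins and 1.26 in the others. At least 4-fold higher, with N2 counted as no fewer than 3 reads, were 712 of the adjacent bins (31.6%) and 5848 of the others (20.6%).

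That gap appeared in each of the 8 coIP bands. In the lowest, 1 to 1.5, the median log2 ratio was 1.45 next to a bin without an N2 read and 0.66 elsewhere, at 5 to 10 it was 2.46 and 1.16, and at 50 and above it was 4.17 and 2.62. In the band of 5 to 10, 232 of 396 adjacent bins (58.6%) and 28.5% of the others were at least 4-fold higher. Counts of at least 4-fold were 0 on both sides under a coIP value of 3, where the limit of 3 N2 reads cannot be passed. The highest band held 161 adjacent bins with a median coIP value of 107.57 and a median N2 value of 4.26, against 111.13 and 12.9 elsewhere.

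**Figure D4:**
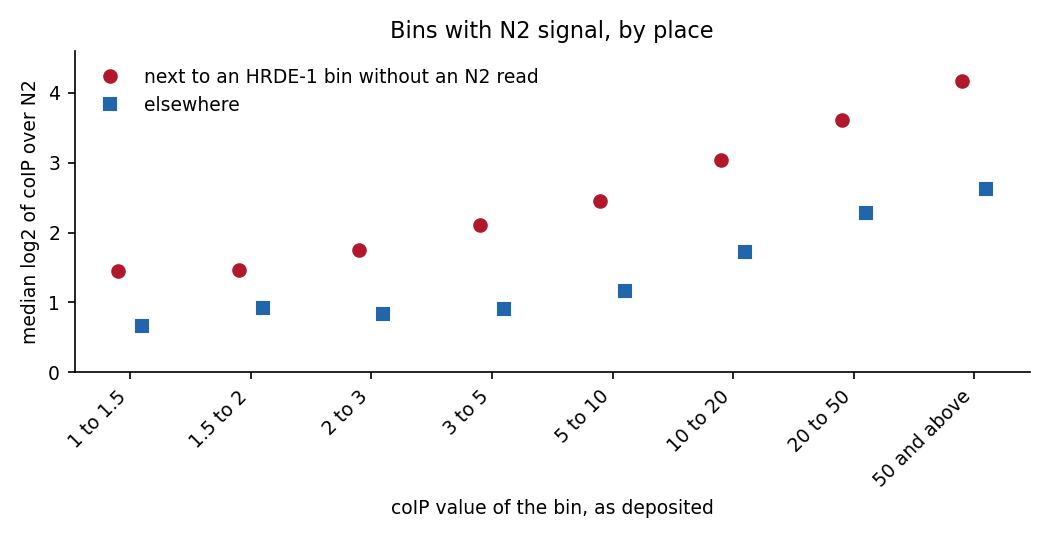
Median log2 ratio of coIP over N2 (vertical axis, each library as a share of its total) in coIP bins with N2 signal, by coIP value as deposited (horizontal axis), next to a bin without an N2 read and elsewhere. The medians next to such a bin lie above the others in all 8 bands, from 1.45 against 0.66 to 4.17 against 2.62.

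Whole reads were somewhat more frequent in these bins. A coIP value within 0.0055 of a whole number of reads was found in 1142 of the 2920 (39.1%) and in 32.5% of coIP bins with N2 signal, and 6.51% would fall so close for evenly spread values. At coIP values of 1.5 to 2 the shares were 49.5% and 35.9%, at 3 to 5 they were 37.4% and 34.1%, and at 5 to 10 they were 46.1% and 39.9%. The other 1778 bins hold at least part of their coIP signal as fractions, as would be seen for reads split among sites.

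Few of the bins carried a mark. The deposited table marks bins as GRTS and GRH, which in published work on HRDE-1 stand for loci of germline nuclear RNAi-dependent transcriptional silencing and of its heterochromatin, although the file spells out neither. Of the 2920, 2 carried GRTS and 3 GRH, or 5 marked bins (0.171%), against 361 of the coIP bins with N2 signal (1.18%) and 381 of all bins (0.380%). Marks follow signal. At coIP values of 50 and above 8.38% of coIP bins with N2 signal were marked, and none of the 7 bins without an N2 read. In the weakest band, 1 to 1.5, the order was the other way, with 0.272% of bins without an N2 read (3 of 1101) and 0.0232% of those with N2 signal (1 of 4315). Between 2 and 3 the shares were 0.188% (1 of 531) and 0.164%, and between 3 and 5 they were 0.246% (1 of 406) and 0.254%. Within 5 kb of a marked bin lay 30 of the 2920 (1.03%), 4.31% of coIP bins with N2 signal and 1.73% of all bins.

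Each of the 5 marked bins was the first or last bin of a run of adjacent marked bins. On III, the GRH bin at 8796001 to 8797000 was the last of 4 marked bins and had a coIP value of 2.30 (13.0 reads). The bin starting 2 kb to its left had 665.18 in the coIP and 272.79 in N2. The GRTS bins on V at 5485001 to 5486000 and 5487001 to 5488000 had coIP values of 4.79 (27.8 reads) and 1.30 (7.10 reads), with a marked bin of N2 value 0.22 between them, and were the first and last of 3 marked bins. The first of them had the highest coIP value of that run. The GRH bin at V 11486001 to 11487000 was the last of 3 and had 1.11 in the coIP (5.98 reads), beside an unmarked bin with 574.58 in the coIP and 94.01 in N2. The GRH bin at V 12696001 to 12697000 was the last of 5 and had 1.46 (8.05 reads), while the first of the 5 had 1282.25 in the coIP. With 3 N2 reads allowed, the ratio under scaling to library sums was at least 4.14-fold at V 5485001 and at least 0.891-fold at V 11486001, where a difference was not detectable.

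The 10 bins with the highest coIP value, chosen by a fixed rule of size, were all unmarked, with 4 in arms and 6 in centres. Ratios for them are lower bounds with 3 N2 reads per bin under scaling to library sums. For a run, coIP reads were summed and 3 N2 reads were allowed for the whole run, not for each bin. All such bounds, for runs and marked bins too, are 1.62 times lower with sums that leave out the 10 highest bins of either library and 1.70 times lower with the median of ratios, which puts the largest at 62.7 and 59.9. Positions are those of the file, whose genome build is not given in the sources used here, and no gene was assigned. The highest was II 3206001 to 3207000, with 115.14 in the coIP (681 reads, 95% Poisson interval 631 to 734) and at least 101.5-fold higher. The next bin to its right had 123.76 in the coIP and 0.33 in N2, a single read, and the bin to its left had 0.34 and 0.10. It is therefore part of a 2 kb peak with a sharp left border.

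On X, the bin 7274001 to 7275000 had 88.2 in the coIP (521 reads) and was at least 77.8-fold higher. It opened a run of 4 bins up to 7278000 with values of 88.2, 4.75, 4.67 and 17.6 in the coIP and no N2 read. The bins flanking this run had N2 signal and higher coIP values, with 150.89 in the coIP and 1.51 in N2 to its left and 167.34 and 1.03 to its right. Summed over the 4 kb the run had 679.7 coIP reads, against the 304.04 N2 reads that an equal share would give.

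On V, the bin 3117001 to 3118000 had 82.79 in the coIP (489 reads, at least 73.0-fold higher), and N2 was at 0.10 or 0.11 in the 2 bins on each side. Its neighbours had 25.46 and 16.02 in the coIP, and both signals were at 0.10 in the bin 2 kb to its right, so no whole N2 read lay within 2 kb of this peak. The adjacent bins V 8193001 to 8194000 and V 8194001 to 8195000 had 66.38 (392 reads) and 50.62 (299 reads) in the coIP and were at least 58.5-fold and 44.6-fold higher. The bin on their left had 78.0 in the coIP and 0.80 in N2. A further bin on V, 12195001 to 12196000, had 49.26 in the coIP (291 reads, at least 43.4-fold), with 36.25 in the coIP and 0.80 in N2 to its left and both libraries near the floor to its right.

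The remaining 4 of the 10 were on II, IV and X. On II, 1042001 to 1043000 had 80.35 in the coIP (475 reads, at least 70.8-fold), and the bin on its right had 360.83 in the coIP and 4.05 in N2. On IV, 8781001 to 8782000 and 8779001 to 8780000 had 51.45 (304 reads) and 48.25 (285 reads) in the coIP, at least 45.3-fold and 42.5-fold higher. Between them lay a bin with 45.38 in the coIP and 0.34 in N2, about 1 read. On X, 392001 to 393000 had 48.6 in the coIP (287 reads, at least 42.8-fold), beside a bin with 229.38 in the coIP and 1.96 in N2. In 8 of the 10 cases an adjacent bin held at least 1 N2 read.

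Of the 7 runs of 4 bins, 3 were on II, 2 on X, 1 on V and 1 on I, and 5 were in arms. Their ratios allow 3 N2 reads over the whole run and cannot be set beside those of single bins. After the X run above, the strongest was II 13610001 to 13614000, with coIP values of 1.54, 14.29, 22.57 and 4.33 (250.6 reads in all, at least 37.4-fold higher). V 18842001 to 18846000 had 5.85, 13.11, 5.34 and 5.09 (171.6 reads, at least 25.6-fold) and dropped to 0.11 in the next bin. II 421001 to 425000 had 2.30, 2.41, 7.43 and 7.40 (113.3 reads, at least 16.9-fold) and began directly beside a bin with 421.45 in the coIP and 5.27 in N2. Within the run on II the coIP value was higher away from that bin than beside it.

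The weaker runs of 4 bins were II 14588001 to 14592000 with 64.2 reads (at least 9.58-fold), X 6624001 to 6628000 with 58.5 reads (at least 8.72-fold) and I 1688001 to 1692000 with 43.7 reads (at least 6.52-fold). On I the flanking bins had N2 values of 0.14 and 0.15, fractions of a read. Of the 3 strongest runs of 3 bins, III 10528001 to 10531000 had coIP values of 2.01, 11.6 and 19.7, the last beside a bin with 159.23 in the coIP and 3.58 in N2. V 9960001 to 9963000 had 14.8, 8.04 and 7.03 (175.04 reads, at least 26.1-fold) with N2 at 0.10 in the 2 bins on each side. II 1001 to 4000, at the left end of the chromosome, had 3.31, 2.30 and 19.05 and bordered a bin with 101.33 in the coIP and 1.96 in N2.

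**Figure D5:**
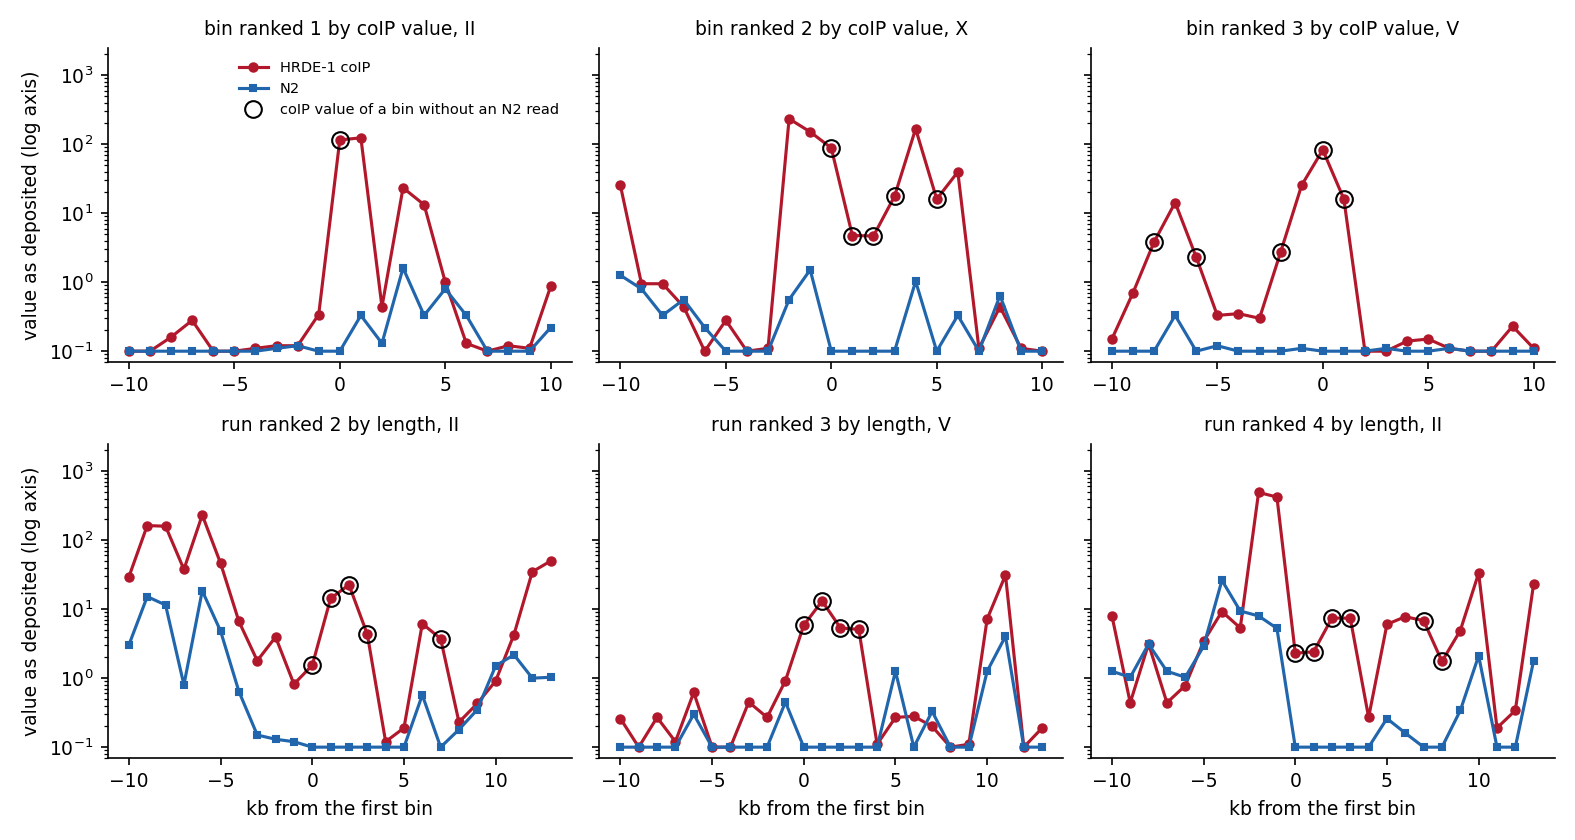
Values as deposited in both libraries (vertical axis, log scale) by kb from the first bin of the region (horizontal axis), for the 3 bins with the highest coIP value and for 3 of the longest runs. Ringed points are coIP values of bins without an N2 read. In the top row the coIP reaches 82.79 to 115.14 in the bin at 0 kb, where N2 is at its floor of 0.10, and the highest N2 value shown is 1.61 on II, 1.51 on X and 0.33 on V. The last panel shows a run beside a bin with 421.45 in the coIP.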

How the data were processed

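Small RNA was sequenced from 1 HRDE-1 coIP library and 1 N2 library. The submitters' processing notes list Bowtie 0.12.7. Build, read filters, the handling of multi-site reads and the total used for scaling are not given in the sources. The deposited signal is the authors' coverage per 1 kb bin, scaled per library, with a floor of 0.10. The authors' deposited p-value per bin is rounded to 2 decimals, by a method not stated in the sources used here. The marks are copied as deposited.

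The value of 1 read was inferred as the step that made most values whole, and read equivalents are (value − 0.10) divided by it. Libraries were compared as shares of their sums, with N2 counted as no fewer than 3 reads per bin, or per whole run, for lower bounds. Bins were placed in runs, arms (outer 30%) and coIP bands. Intervals are at 95% and cover counting error only. The run, neighbour and step code was tested on simulated data. Python 3.11.15, numpy 2.4.6, pandas 2.3.3 and scipy 1.17.1 were used. Regions named are the 10 bins with the highest coIP value, the 10 longest runs (ties by coIP sum) and all marked bins. The rule for the bins, the lists and the settings were chosen with earlier results of these data known. The reference annotation is of WBcel235, and the build of the table is unknown, so no gene or sequence is given.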

Additional observations from a re-analysis of the deposited data

How the results depend on the processing

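The number of bins is set by the limits. From 2920 it became 5911, 1310 and 373 with coIP minimums of 0.5, 2.0 and 5.0, 7103 with up to 1 N2 read and 1142 with whole coIP reads only. In that order of settings, runs (2537) became 4902, 1184, 345, 5525 and 1064. Bins with N2 signal next to them (2378) became 4592, 1085, 304, 6104 and 901, and the share of the coIP library (1.14%) became 1.36%, 0.878%, 0.539%, 2.96% and 0.459%. Marked bins (5) became 2 with a coIP minimum of 2.0, 0 with 5.0, 11 with up to 1 N2 read and 2 with whole reads. Limits act on these counts by construction. Bins at least 4-fold higher (415) became 1073 with up to 1 N2 read, 183 with whole reads, 201 with the median of ratios and 213 with sums without the 10 highest bins of either library. Bins with a coIP share above that of 3 N2 reads (2403) became 1301 and 1416 under these scalings, a comparison added after seeing the data.

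The arm share (72.3%) became 74.0% and 74.8% with coIP minimums of 2.0 and 5.0, 73.9% with up to 1 N2 read, 67.2% with whole reads and 53.3% with arms as the outer 20%. Under each it was above that of the coIP bins left over (59.3%, 60.1%, 59.7%, 51.4% and 42.8%). At the main setting the excess was in left arms (40.5% against 29.9%) and not in right arms (31.7% against 31.8%). The X share (17.7%) became 20.1% with a coIP minimum of 5.0, 15.3% with up to 1 N2 read and 20.8% with whole reads, against 10.3%, 9.65% and 9.40% of the coIP bins left over. The other 11 of 49 alternative values stayed within 1.5 times the count or within the counting interval. No paired analysis was possible because there is only 1 library per group, and for the same reason no library could be left out. Depth limits what absence from N2 means, since 0 reads allow up to 3.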
